A study of Homo sapiens with 16 samples.

Results

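Interferon-stimulated genes are the genes that cells switch on in answer to interferons, the cytokines released when viral or misplaced nucleic acid is sensed. A list of 56 such genes, from sensors of foreign RNA to antiviral effectors and the transcription factors that drive them, was followed through RNA-Seq of MUTZ-3 cells. The members were taken by gene name, and 56 of 56 had 10 or more counts in at least 3 of the 16 libraries, as did 18597 of the 60623 genes counted. MUTZ-3 is a human acute myeloid leukemia (AML) line with an inv(3) rearrangement, which places a distal enhancer next to *EVI1*, listed in the files as *MECOM*. In the PARP inhibitor (PARPi) time course, cells were left untreated at 0 h, or were kept for 12, 24 or 48 h with the vehicle DMSO, with olaparib at 10 µM, or with talazoparib at 1 µM, which gave 10 libraries. In the knockdown, cells carried a lentiviral non-targeting control shRNA (NTC) or 1 of 2 shRNAs against *EVI1*, shEVI1-2531 and shEVI1-2532, and were collected on day 3 and day 6, which gave 6 libraries. The cells of both experiments were of the same line and grew with serum, medium conditioned by another cell line and GM-CSF, and the NTC cells went through the same transduction and puromycin selection as the shEVI1 cells. Each condition was sequenced once. The labels do not say that the libraries came from separate cultures, so p-values measure only the spread between these libraries, which may be technical. Where hours or day served as blocks, this spread includes changes of an effect between hours or days. With both shRNAs as 1 group it also includes their difference.

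Type I and type III interferons bind receptors that activate the kinases JAK1 and TYK2. The signal reaches the nucleus through a complex that holds STAT2 and IRF9 and binds a short promoter motif, the interferon-stimulated response element. Interferon gamma acts through JAK1 and JAK2 on a different motif, the gamma-activated site, and typically induces *IRF1* and the guanylate-binding proteins. Myeloid cells hold a basal level of many of these genes, which can rise without infection when nucleic acid sensors such as RIG-I, MDA5 or cGAS are engaged.

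Promoters of RefSeq (build GRCh38.p14, 250 bases before to 50 bases after the first start listed for a gene) were found for 43 of the 56 members. The response element, searched as GAAANNGAAA on both strands (TTTCNNTTTC when read on the other strand), was present in 26 of these 43 windows, or 60.5%, and in 3.65% of all 27305 promoters of the same length. The gamma-activated site, searched as TTCNNNGAA, which reads alike on both strands, was present in 11 of the 43, or 25.6%, and in 7.88% of all promoters. Both searches covered the same windows, and matches of the 2 motifs may overlap. Where a promoter held several matches, the one nearest the start was taken. The sites below are those of members whose values are given in each DMSO and inhibitor library and which hold the first motif upstream of the start. They are shown because they are the sequence feature that most of these promoters share. Capitals mark each whole match, and each line gives the gene strand from the upstream end towards the start.
IFIH1: gaagagaatcGAAACAGAAAccaaagtcag
IFIT1: cactttccccTTTCGGTTTCcctaggtttc
IFIT3: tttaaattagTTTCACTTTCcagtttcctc
OAS3: agccgggcggGAAAACGAAAcc
ISG15: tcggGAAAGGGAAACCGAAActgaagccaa
HERC5: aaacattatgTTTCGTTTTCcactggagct
IFITM1: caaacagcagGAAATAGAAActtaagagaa
RTP4: accgaacaccGAAACTGAAActgtttgt
PLSCR1: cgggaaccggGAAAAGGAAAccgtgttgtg
IFI6: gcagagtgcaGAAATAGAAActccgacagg
IFI27: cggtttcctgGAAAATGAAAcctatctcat
IFI44L: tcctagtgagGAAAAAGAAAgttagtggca
GBP1: aacgaagtacTTTCAGTTTCatattactct

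These sites lay near the genes' starts, with the first base of the match from 12 bases (*OAS3*) to 127 bases (*GBP1*) upstream. In GRCh38.p14 the printed bases were those of *IFIH1* at chr2:162318686-162318715 (minus strand), *IFIT1* at chr10:89392510-89392539 (plus strand), *IFIT3* at chr10:89327865-89327894 (plus strand), *OAS3* at chr12:112938452-112938473 (plus strand), *ISG15* at chr1:1013380-1013409 (plus strand), *HERC5* at chr4:88457035-88457064 (plus strand) and *IFITM1* at chr11:313990-314019 (plus strand). The others were those of *RTP4* at chr3:187368357-187368384 (plus strand), *PLSCR1* at chr3:146544667-146544696 (minus strand), *IFI6* at chr1:27672266-27672295 (minus strand), *IFI27* at chr14:94110631-94110660 (plus strand), *IFI44L* at chr1:78620365-78620394 (plus strand) and *GBP1* at chr1:89065316-89065345 (minus strand). In *ISG15* the capitals cover 2 overlapping matches. By the GENCODE annotation of the same assembly the printed bases of *IFIT1*, *ISG15*, *HERC5*, *IFI6* and *IFI27* overlapped no exon, and those of the others overlapped an exon of at least 1 transcript. Members in which the search found a match differed in how they moved in the libraries described below: *HERC5* and *PLSCR1* were higher with shEVI1-2532, while *IFIT1*, *OAS3* and *IFI27* were lower. Of the 35 members lower with shEVI1-2532, 27 had a promoter in the table and 17 of these held the response element. Of the 7 members that were higher, 5 had a promoter and 3 held it. A match is a description of the letters and not of binding.

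Depth ranged from 55999673 to 72681943 counts in the time course and, in the knockdown, from 95523038 to 120716213. Levels are given as CPM, a gene's counts scaled to the size of its library and adjusted by TMM factors, computed separately in the 2 experiments. A level of 3 counts, taken as the floor, lay between 0.0231 and 0.0631 CPM on this scale. *MECOM*, the target of the knockdown, had 40.6 and 37.2 CPM with NTC, 13.2 and 17.5 with shEVI1-2531 and 5.14 and 4.31 with shEVI1-2532, each pair of values standing for day 3 and day 6, so that all 4 shEVI1 libraries were below both NTC libraries, as their labels say. Of the 8 listed genes that mark the line, *PTPRC* (CD45) had 303 to 565 CPM and *CD33* 76.6 to 183 CPM over the 16 libraries. Others moved more. *CD34* had 289 and 644 CPM with NTC and 4.58 and 3.61 with shEVI1-2532, on day 3 and day 6. From DMSO to talazoparib at 48 h, *CD34* went from 419 to 111 CPM, *MPO* from 2453 to 603 and *KIT* from 86.4 to 22.3. *ANPEP* went from 599.5 to 1357 and *SPI1* from 192 to 458. The epithelial markers *EPCAM*, *CDH1* and *KRT19* had at most 8 counts. A further epithelial marker, *KRT18*, had 6.10 to 20.6 CPM and was higher with shEVI1-2532 (log2 fold change 1.45), and its part in the members' levels was not tested. The 8 markers of T, B and NK cells summed to 24.5 to 43.8 CPM. Of the 56 members, 20 overlap another gene with 10 or more counts, and the labels do not say whether counting used strand, so these levels are uncertain. Among them are *IFIT1*, *IFIT2* and *IFIT3*, which overlap *LIPA* on the other strand, *TRIM5* with *TRIM22*, *RSAD2* with *CMPK2*, and *IRF1*, *EIF2AK2*, *RNF213*, *IFI6* and *XAF1*. *IFITM1* and *IFITM2*, close paralogs, overlap on the same strand, as do *IRF9*, *IFITM3*, *SP100* and *TRIM25* with other genes. In bulk RNA, fewer cells that express a gene and less RNA per cell cannot be told apart.

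In the time course most members were higher at 48 h than at 12 h in every arm, and from 24 h on most were higher with PARPi than with DMSO. With olaparib at 12 h, 1 of 56 members exceeded DMSO of the same hour more than 2-fold, against 2.93% of the 17218 genes tested, and with talazoparib 0 did, against 3.21%. At 24 h this was so for 16 members with olaparib and 31 with talazoparib, against 6.01% and 8.83% of all genes. At 48 h it was so for 19 with olaparib and 16 with talazoparib, against 12.1% and 16.9%. The median log2 ratio of the members to DMSO was 0.07, 0.65 and 0.81 with olaparib at 12, 24 and 48 h and 0.21, 1.08 and 0.53 with talazoparib, while the median of all genes was between -0.02 (olaparib, 24 h) and 0.01 (talazoparib, 48 h). In all 6 inhibitor libraries, 27 of the 56 members were above DMSO of the same hour. This was not counted over all genes, and each DMSO library was the reference for both inhibitors of its hour. The doses of the inhibitors differed, so their values stand side by side here and were not compared by a test.

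**Figure D1:**
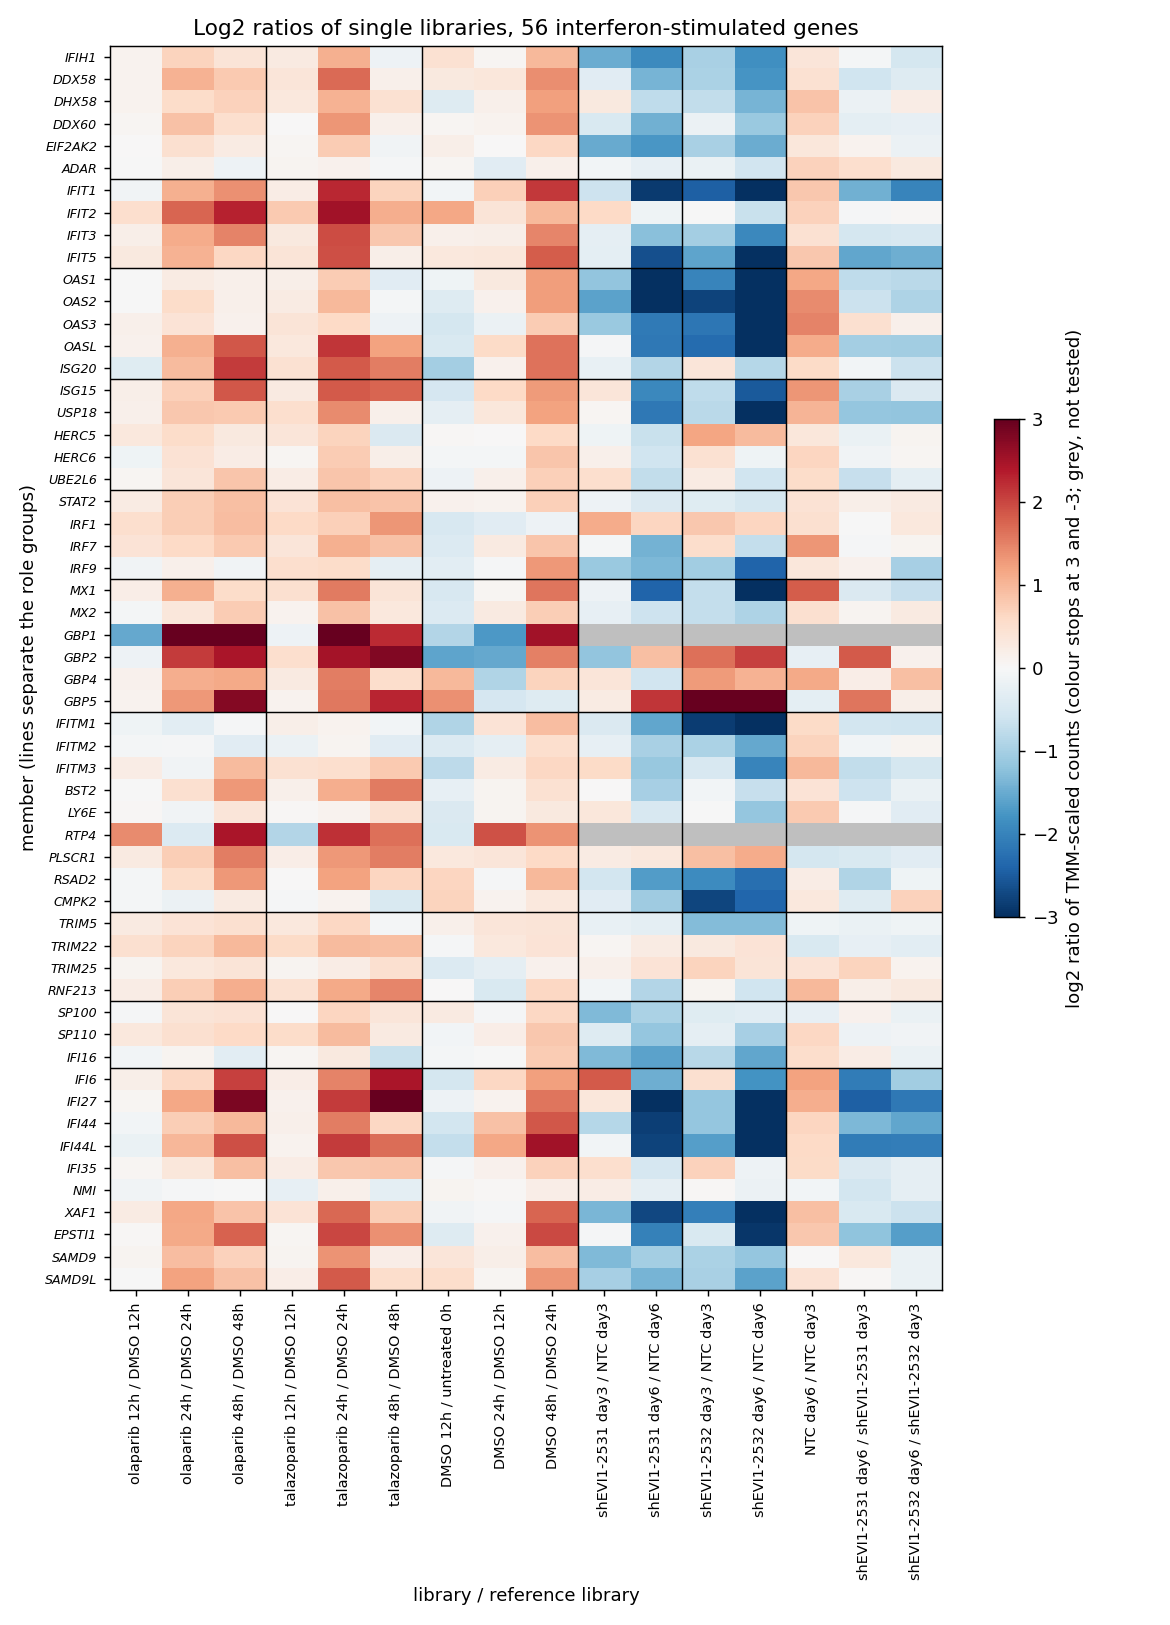
Log2 ratios of single libraries for the 56 interferon-stimulated genes (rows, in role groups separated by lines), each column being 1 library over its reference library. Red stands for higher and blue for lower levels: the columns of inhibitors at 24 and 48 h and of DMSO at 48 h are mostly red, and the shEVI1 columns mostly blue with red cells for *GBP2*, *GBP5*, *PLSCR1* and *IRF1* with shEVI1-2532.

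The members were also higher at 48 h with DMSO alone. Between DMSO at 12 h and untreated cells, 2 members were more than 2-fold higher and 2 lower, against 3.58% and 6.26% of all genes. From 12 to 24 h with DMSO 2 members were more than 2-fold higher, against 2.47%. From 24 to 48 h 24 members were, against 4.25% of all genes, with a median log2 ratio of 0.93. DMSO at 48 h exceeded every earlier DMSO library and the untreated one in 47 of the 56 members. The olaparib library at 48 h was the highest of the 10 libraries for 40 members, the talazoparib library at 48 h for 9 and DMSO at 48 h for 4. The counts of 47, 40, 9 and 4 members were not made over all genes.

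Among the sensors of RNA and their effector kinase, levels were higher at 48 h than at 12 h in every arm except for *ADAR*. In the sentences that follow, groups of 3 values stand for 12, 24 and 48 h. *IFIH1*, which encodes the RNA sensor MDA5, had 11.6 CPM in untreated cells, 16, 16.7 and 32.6 CPM with DMSO, 17.3, 26.5 and 42.5 with olaparib and 19.1, 35.1 and 29.5 with talazoparib. The DMSO library at 48 h was above the inhibitor libraries at 12 h and above talazoparib at 48 h, so the arms overlapped. *EIF2AK2*, the kinase PKR that halts translation on double-stranded RNA, had 76.9, 77.7 and 120.3 CPM with DMSO, 77.1, 109 and 144 with olaparib and 79.7, 131 and 111 with talazoparib, against 68.4 in untreated cells. At 24 h both inhibitor libraries exceeded DMSO, and at 48 h talazoparib did not. *ADAR*, which edits double-stranded RNA, had 444, 350.0 and 389.7 CPM in the DMSO libraries, 442, 396 and 354 in the olaparib libraries, 473, 379.7 and 381 in the talazoparib libraries and 429 before treatment. Within each arm its 12 h library was the highest. *DDX58* (RIG-I), *DHX58* and *DDX60* had their highest level with olaparib at 48 h, at 75.2, 25.6 and 74.5 CPM, against 43.4, 15.8 and 52.2 CPM with DMSO at that hour.

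The IFIT genes, whose proteins bind viral RNA and block its translation, were lower at 12 h than at 24 or 48 h in every arm. *IFIT1* had 17 CPM in untreated cells, 16.1, 26.4 and 115 CPM with DMSO, 14.9, 55.2 and 300.3 with olaparib and 18.8, 125 and 185 with talazoparib. The inhibitor libraries exceeded DMSO at 24 and 48 h, and the untreated and 12 h libraries lay together below the rest. *IFIT3* had 30.7, 34.8 and 96.1 CPM with DMSO, 34.8, 74.9 and 271 with olaparib and 37.5, 135 and 169.7 with talazoparib, against 27.5 in untreated cells. Talazoparib at 24 h was above DMSO at 48 h for both genes. *IFIT2* had 7.09, 9.32 and 18.3 CPM in the DMSO libraries, 10.0, 31.4 and 91 in the olaparib libraries, 12.2, 53.4 and 39.3 in the talazoparib libraries and 3.19 before treatment. DMSO was the lowest of the 3 arms at each hour. *IFIT5* ranged from 3.59 CPM in untreated cells to 30.8 CPM with olaparib at 48 h.

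The OAS genes encode enzymes that sense double-stranded RNA and activate RNase L, and *OASL* encodes a relative without that activity. *OAS1* had 51.7 CPM in untreated cells, 47, 58 and 138 CPM with DMSO, 46.8, 68.4 and 152 with olaparib and 53.2, 98.6 and 109 with talazoparib. *OAS2* had 71.8, 79.1 and 187 CPM with DMSO, 71.8, 117 and 207 with olaparib and 84.6, 155 and 180.0 with talazoparib, against 93.5 in untreated cells. *OAS3* had 262, 231 and 393 CPM in the DMSO libraries, 289.6, 306 and 429.8 in the olaparib libraries, 344, 351 and 356 in the talazoparib libraries and 376 before treatment. For these 3 enzymes DMSO at 48 h was within the inhibitor values of that hour, and the untreated library of *OAS2* and *OAS3* was above all DMSO libraries before 48 h. *OASL* had 7.54 CPM in untreated cells, 5.51, 8.15 and 25.2 CPM with DMSO, 6.01, 17.1 and 91 with olaparib and 6.91, 36.2 and 57.9 with talazoparib. In contrast to the enzymes, both its inhibitor libraries at 48 h stood above every DMSO library. The nuclease gene *ISG20* ranged from 0.367 CPM with olaparib at 12 h to 6.93 CPM with olaparib at 48 h.

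*ISG15* encodes a ubiquitin-like protein that is joined to other proteins by UBE2L6 and HERC5 and removed by USP18. *ISG15* had 64.2 CPM in untreated cells, 45.2, 68.7 and 166 CPM with DMSO, 51.2, 113 and 606 with olaparib and 54.4, 244 and 559.9 with talazoparib. Talazoparib at 24 h already exceeded DMSO at 48 h. *UBE2L6* had 67.5, 74.6 and 123 CPM with DMSO, 69.8, 96.1 and 219 with olaparib and 78.2, 132 and 199 with talazoparib, against 75.1 in untreated cells. Its arms were close at 12 h and apart at 48 h, with both inhibitors above DMSO. *HERC5* had 26.3, 26.6 and 40.1 CPM in the DMSO libraries, 32.9, 38.7 and 49 in the olaparib libraries, 33.7, 42.1 and 29.7 in the talazoparib libraries and 25.8 before treatment. Here talazoparib at 48 h lay below DMSO, unlike at 12 and 24 h.

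Of the transcription factors, *STAT2* and *IRF9* encode partners of the complex that binds the response element. *STAT2* had 31.7 CPM in untreated cells, 34.5, 36.9 and 60.2 CPM with DMSO, 40.6, 61.4 and 112 with olaparib and 45.8, 68.9 and 109.8 with talazoparib. Both inhibitors exceeded DMSO at each hour. *IRF7*, the factor that amplifies type I interferon production, had 21.2, 25.7 and 45.8 CPM with DMSO, 28.2, 38.9 and 79.2 with olaparib and 27.3, 54 and 84 with talazoparib, against 28.4 in untreated cells. It too was lowest with DMSO at each hour. *IRF1* had 16.9, 13.5 and 12.1 CPM in the DMSO libraries, 24.1, 22.3 and 23.1 in the olaparib libraries, 25.4, 22.2 and 30.3 in the talazoparib libraries and 23.7 before treatment. No inhibitor library overlapped a DMSO library, and DMSO was below the untreated level at all 3 hours while the inhibitor libraries stayed between 22.2 and 30.3 CPM. *IRF9* stayed between 1.24 and 3.27 CPM.

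The MX proteins are antiviral GTPases and the GBP family are GTPases known best as targets of interferon gamma. *MX1* had 59.4 CPM in untreated cells, 42.7, 44.6 and 136 CPM with DMSO, 48.7, 94 and 199.7 with olaparib and 59.7, 131 and 178 with talazoparib. *MX2* had 31.2, 37.6 and 62.9 CPM with DMSO, 30.0, 47.4 and 106 with olaparib and 33.5, 69.1 and 77.7 with talazoparib, against 41.6 in untreated cells. Both inhibitors were above DMSO at 24 and 48 h for these 2 genes. *GBP2* had 0.945, 0.320 and 0.929 CPM in the DMSO libraries, 0.856, 1.40 and 5.07 in the olaparib libraries, 1.34, 1.85 and 6.37 in the talazoparib libraries and 2.85 before treatment. *GBP4* had 1.17 CPM in untreated cells, 2.32, 1.24 and 1.96 CPM with DMSO, 2.54, 2.66 and 4.33 with olaparib and 2.79, 3.57 and 2.84 with talazoparib. *GBP5* had 0.458, 0.320 and 0.244 CPM with DMSO, 0.489, 0.798 and 1.70 with olaparib and 0.495, 0.965 and 1.22 with talazoparib, against 0.174 in untreated cells. At 24 and 48 h both inhibitors exceeded DMSO in these 3 genes, and *GBP5* was lower with DMSO at 48 h than at 12 h. *GBP1* was near the limit, with 4, 1 and 7 counts with DMSO, 1, 36 and 49 with olaparib and 4, 17 and 25 with talazoparib, and its log2 ratio of olaparib to DMSO at 48 h was 3.00 (95% interval 1.89 to 4.11), an interval for counting error only.

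Among genes for membrane proteins that block viral entry or release, *IFITM1* had 96.6 CPM in untreated cells, 51.8, 69 and 131 CPM with DMSO, 47.4, 55.6 and 127 with olaparib and 58.2, 74.4 and 123 with talazoparib. *IFITM2* had 421, 350.4 and 499 CPM with DMSO, 405, 344 and 392 with olaparib and 370.4, 369 and 391 with talazoparib, against 558 in untreated cells. *LY6E* had 254, 270.4 and 330.5 CPM in the DMSO libraries, 259.6, 253 and 423 in the olaparib libraries, 259, 293 and 454 in the talazoparib libraries and 342 before treatment. None of these 3 separated PARPi from DMSO over the hours. *PLSCR1*, a phospholipid scramblase gene, had 58.5 CPM in untreated cells, 72.9, 94.5 and 143 CPM with DMSO, 87.9, 157 and 412 with olaparib and 84, 233 and 417 with talazoparib. Its inhibitor libraries exceeded DMSO at each hour, most at 48 h. *BST2* (tetherin) had 203 CPM with DMSO, 498 with olaparib and 595 with talazoparib at 48 h, and *RSAD2* (viperin) 109, 268 and 169.9. *RTP4*, for a receptor transporter protein, had 2, 10 and 23 counts with DMSO, 6, 7 and 105 with olaparib and 1, 37 and 53 with talazoparib. *CMPK2*, for a mitochondrial nucleotide kinase, stayed between 25.5 and 65.3 CPM.

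*TRIM25* encodes a ligase that activates RIG-I, *TRIM22* a restriction factor and *RNF213* a giant ubiquitin ligase. *TRIM25* had 288 CPM in untreated cells, 217, 179.5 and 196 CPM with DMSO, 231, 223 and 256 with olaparib and 231, 211 and 274 with talazoparib. *TRIM22* had 75.5, 94.5 and 126 CPM with DMSO, 106, 151 and 249 with olaparib and 113, 183 and 237 with talazoparib, against 77.5 in untreated cells. *RNF213* had 99.6, 72.1 and 110.0 CPM in the DMSO libraries, 116, 120.1 and 233 in the olaparib libraries, 136, 159 and 304 in the talazoparib libraries and 98.4 before treatment. For all 3, both inhibitors were above DMSO at each hour. *SP100*, of the PML nuclear bodies, had 56.1 CPM in untreated cells, 67.4, 66 and 102 CPM with DMSO, 65.3, 86.4 and 137 with olaparib and 67.9, 103 and 132 with talazoparib. *IFI16*, a sensor of DNA, had 119, 118 and 201 CPM with DMSO, 112, 125 and 162 with olaparib and 124, 144 and 127 with talazoparib, against 124 in untreated cells. The DMSO library at 48 h was the highest for *IFI16*.

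The remaining members are interferon-induced genes of varied or unclear role. *IFI6*, of the mitochondrion and endoplasmic reticulum, had 144 CPM in untreated cells, 99.5, 152 and 355 CPM with DMSO, 113, 235 and 1468 with olaparib and 113, 425 and 1924 with talazoparib. *IFI27* had 4.16, 4.52 and 13.7 CPM with DMSO, 4.31, 10.1 and 97.5 with olaparib and 4.56, 19.2 and 119.6 with talazoparib, against 4.62 in untreated cells. *IFI44L* had 1.93, 4.30 and 24.6 CPM in the DMSO libraries, 1.70, 8.65 and 93.6 in the olaparib libraries, 2.09, 18.5 and 78.3 in the talazoparib libraries and 3.17 before treatment. In these 3 genes the 12 h libraries lay together and both inhibitors at 48 h stood far above DMSO. *IFI35* had 43.8 CPM in untreated cells, 42.5, 46.5 and 74.6 CPM with DMSO, 44.4, 59.2 and 139 with olaparib and 49.4, 81 and 134 with talazoparib. *XAF1*, an antagonist of the apoptosis inhibitor XIAP, had 4.43, 4.30 and 14.3 CPM with DMSO, 5.24, 9.66 and 25.8 with olaparib and 5.94, 14.1 and 24 with talazoparib, against 4.80 in untreated cells. Both were highest at 48 h in each arm and higher with PARPi than with DMSO at that hour. *EPSTI1*, *IFI44*, *SAMD9* and *SAMD9L* had their highest level with olaparib at 48 h, and *NMI* ranged only from 50.7 to 70.7 CPM.

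**Figure D2:**
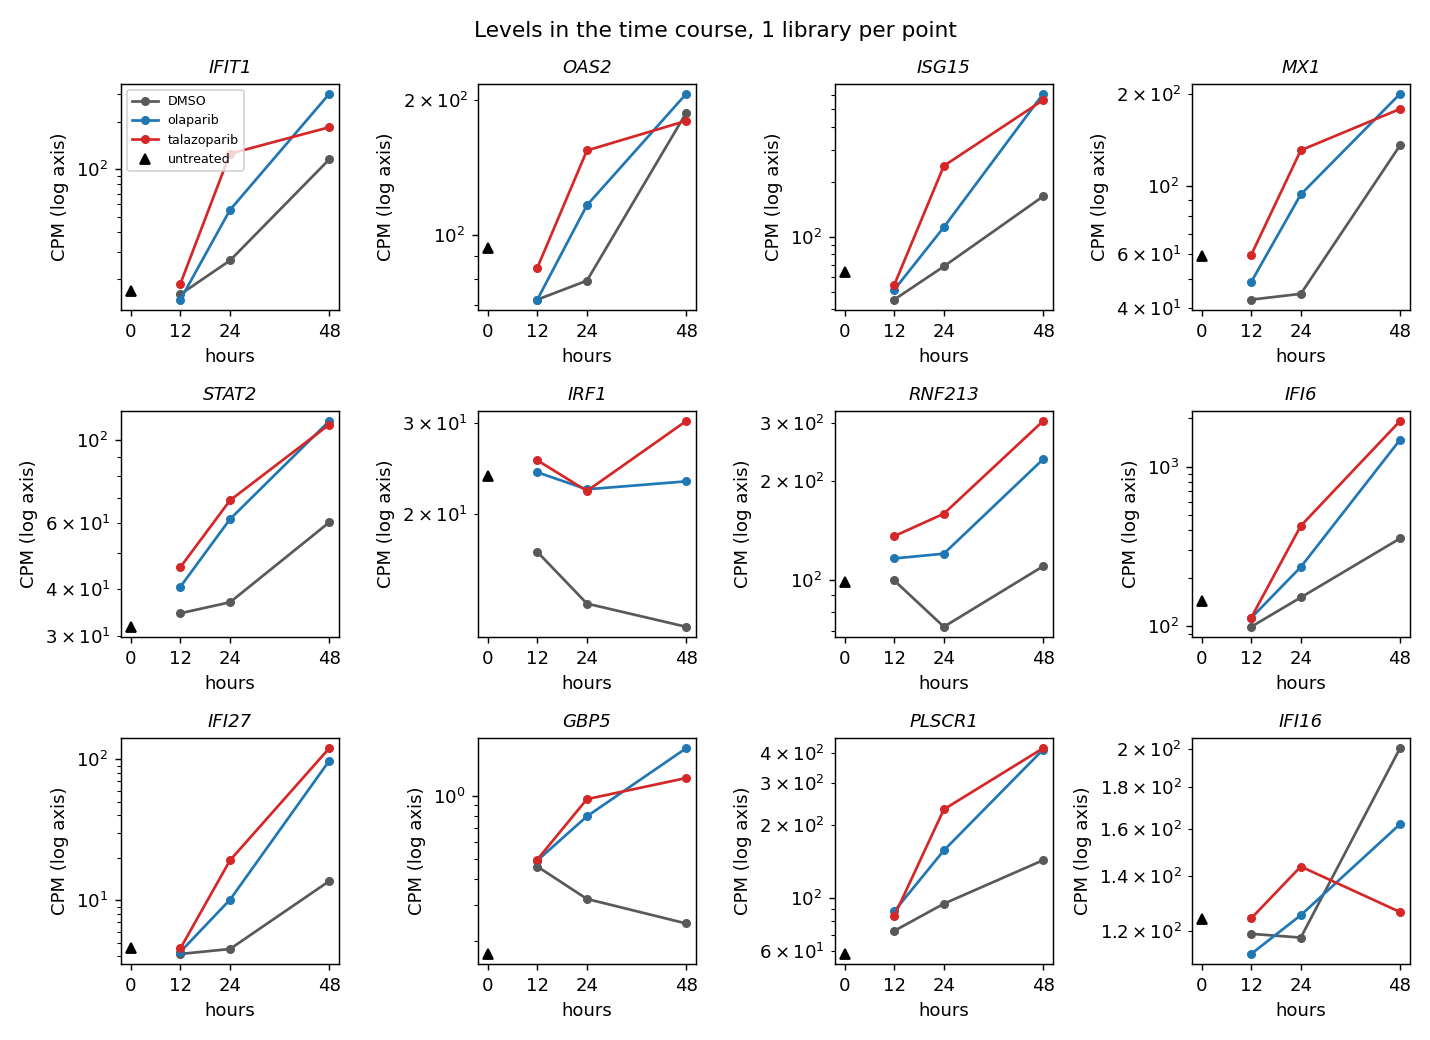
Levels of 12 members in the time course (CPM, log axis) against hours, with 1 library per point, lines joining the libraries of an arm and a triangle for the untreated library. The 3 arms lie close at 12 h for *IFIT1*, *ISG15*, *IFI6* and *IFI27* and apart at 48 h, *IRF1* is lowest with DMSO throughout, and *IFI16* is highest with DMSO at 48 h.

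Tests across the 3 hours used edgeR's quasi-likelihood test with hours as blocks and Benjamini-Hochberg adjustment over all 17218 genes. In the fits of an effect common to the hours, a change of that effect between hours was part of the error. A member whose effect grew could therefore miss the threshold. For the mean effect of both inhibitors, 5 of 56 members rose and 0 fell, against 2.93% and 1.06% of all genes. The 5 were *RNF213* with a log2 fold change of 0.83 ± 0.17 (SE, adjusted p = 0.0432), *IRF1* with 0.79 ± 0.14 (SE, adjusted p = 0.0333), *TRIM22* with 0.76 ± 0.11 (SE, adjusted p = 0.0218), *IRF7* with 0.68 and *STAT2* with 0.67. In each of the 5, both inhibitor libraries were above DMSO already at 12 h. The median log2 fold change was 0.65 over the members and -0.01 over all genes, and 39 members, against 6069 of all genes, had an unadjusted p under 0.05. *GBP1*, *GBP2*, *IFIT2* and *IFI27* had larger values, at 2.49, 1.62, 1.52 and 1.48, which did not pass the threshold. Without the 12 h libraries 34 members rose, as did 2040 of all 17218 genes, and without the 24 h libraries 0 members and 0 of all genes did. DESeq2 called 31 members and 1835 of all genes higher, and edgeR without a filter on low counts 35 members and 2048 of 33282 genes.

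With olaparib alone 0 members passed the threshold, against 0.621% of all genes, and the median was 0.57. An unadjusted p under 0.05 was found for 26 members, against 3200 of all 17218 genes. The largest values were those of *GBP1* at 2.79 ± 0.76, *RTP4* at 1.68 ± 0.76 and *IFIT2* at 1.55 ± 0.43 (SE), with adjusted p of 0.169, 0.277 and 0.172. DESeq2 called 5 members and 584 of all 17218 genes higher with olaparib, and edgeR without the 12 h libraries 18 members and 829 genes. With talazoparib 5 rose, the same genes as for the mean effect, against 2.83% of all genes, and the median was 0.71. *RNF213* rose by 1.01 ± 0.19 (SE, adjusted p = 0.0428), *IRF1* by 0.87 ± 0.15 (SE, adjusted p = 0.0393) and *TRIM22* by 0.81 ± 0.13 (SE, adjusted p = 0.0306). DESeq2 called 29 members and 1965 of all genes higher with talazoparib, and without the 24 h libraries 0 members and 0 of all genes passed.

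The inhibitor effect had a positive slope over the hours for 17 members, most of all for *IFI27* and 2 GBP genes. This slope of the effect on the log2 of hours, the mean of both inhibitors, was above 0 past the threshold for 17 of 56 members and below 0 for 0, against 10.4% and 9.4% of all genes. The largest were *IFI27* at 1.44 ± 0.14 (SE, adjusted p = 1.31e-20), *GBP5* at 1.23 ± 0.32 (SE, adjusted p = 0.00132) and *GBP2* at 1.21 ± 0.23 (SE, adjusted p = 2.23e-06), in log2 fold change for each doubling of hours. *IFI6* (1.03), *IFI44L* (0.87), *ISG20* (0.86), *ISG15* (0.79) and *EPSTI1* (0.74) followed. The IFIT genes *IFIT1*, *IFIT2* and *IFIT3* had slopes of 0.48, 0.52 and 0.46, and *OASL*, *BST2*, *PLSCR1*, *RSAD2*, *RNF213* and *IFI35* completed the 17. A slope above 0 is not a rise at each step. The talazoparib libraries of *IFIT1* had log2 ratios to DMSO of 0.22, 2.25 and 0.68 at 12, 24 and 48 h. *IFIT2*, *IFIT3*, *OASL*, *RSAD2*, *IFI44L*, *ISG20*, *ISG15* and *EPSTI1* likewise had a lower ratio with talazoparib at 48 h than at 24 h, whereas with olaparib each of the 17 had its highest ratio at 48 h. By contrast 0 of the 6 RNA sensor genes passed, and *OAS1*, *OAS2* and *OAS3* had slopes of -0.09, -0.04 and -0.14. This fit had 2 residual degrees of freedom and took the spread wholly from all genes, so its p-values carry no estimate of a single gene's own spread. DESeq2 called 9 members and 1373 of all genes higher. Scaling to the library total alone, which moved the median slope of all genes to -0.12, called 13 members higher and 1, *IFI16*, lower, beside 1091 and 2424 of all genes.

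For time in culture, tested as 48 h against 12 h over the 3 arms, 45 of 56 members rose and 0 fell, against 22.2% and 21.3% of all genes. This is a mean over DMSO and both inhibitors, so an inhibitor effect that grew over the hours is part of it. The median log2 fold change was 1.35 over the members and 0.02 over all genes. *IFI44L* rose by 4.88 ± 0.47 (SE, adjusted p = 0.00203), *RTP4* by 4.58 ± 0.82 (SE, adjusted p = 0.00440) and *IFI27* by 3.67 ± 0.56 (SE, adjusted p = 0.00291). From 12 to 48 h *IFI27* went from 4.16 to 13.7 CPM with DMSO and from 4.56 to 119.6 with talazoparib. *IFI44L* went from 1.93 to 24.6 CPM with DMSO and from 1.70 to 93.6 with olaparib. All 4 IFIT genes rose, by 2.11 to 3.50, as did 5 of the 6 RNA sensor genes and 9 of the 10 genes of varied role. The 11 that did not pass were *ADAR*, *OAS3*, *HERC5*, *IRF1*, *GBP4*, *GBP5*, *IFITM2*, *CMPK2*, *TRIM25*, *IFI16* and *NMI*, with values of -0.27 (*ADAR*) to 0.87 (*GBP5*). Without the olaparib libraries 0 members and 0 of all genes passed, although the members' median stayed at 1.17. In that fit 42 members had an unadjusted p under 0.05, a count not made over all genes. Scaling to the library total alone moved the median of all genes to -0.15 and called 43 members higher and 1, *ADAR*, lower, beside 2742 and 4460 of all genes.

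In the knockdown most members were lower than with NTC, among them the OAS genes and *IFIT1*, while *IRF1* and, with shEVI1-2532, the GBP genes tested were higher. Of the 56 members 54 were tested, among 18606 genes, and *GBP1* and *RTP4* had too few counts. At day 3, 11 of 54 members were more than 2-fold lower with shEVI1-2531 than with NTC and 2 higher, against 11.2% and 7.83% of all genes. With shEVI1-2532 16 were lower and 4 higher, against 15.3% and 13.9%. At day 6, 31 were lower and 1 higher with shEVI1-2531, against 8.17% and 7.23%. With shEVI1-2532 32 were lower and 4 higher, against 14.8% and 13.9%. The median log2 ratio of the members was -0.15 and -1.15 with shEVI1-2531 and -0.71 and -1.44 with shEVI1-2532, on day 3 and day 6.

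The NTC library of day 6 bears on these values. From day 3 to day 6 11 members were more than 2-fold higher with NTC, against 5.34% of all genes, while 9 were more than 2-fold lower with shEVI1-2531 and 10 with shEVI1-2532, against 4.53% and 4.72%. The NTC library of day 6 was the highest of the 6 for 41 of the 56 members. All 4 shEVI1 libraries were below both NTC libraries in 28 of the 56 members and above both in 3. The counts of 41, 28 and 3 members were not made over all genes, so they show nothing particular to the members.

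In the sentences that follow, pairs of values stand for day 3 and day 6. Among the sensors, *IFIH1* had 13 and 16.7 CPM with NTC, 4.68 and 4.46 with shEVI1-2531 and 6.69 and 4.63 with shEVI1-2532. *EIF2AK2* had 12 and 12.9 CPM with shEVI1-2531 and 17.3 and 15.4 with shEVI1-2532, against 34.3 and 43.2 with NTC. Both genes were lower in all 4 shEVI1 libraries than in either NTC library, with no overlap. *ADAR* had 215 and 345 CPM with NTC, 203 and 290.2 with shEVI1-2531 and 189 and 232 with shEVI1-2532, and its groups overlapped. *IFIT1* had 10.7 and 3.95 CPM with shEVI1-2531 and 2.98 and 0.746 with shEVI1-2532, against 16.4 and 28.8 with NTC. *IFIT3* had 26.2 and 35.8 CPM with NTC, 21.6 and 14.9 with shEVI1-2531 and 12.9 and 9.31 with shEVI1-2532. Every shEVI1 library of these 2 genes was below both NTC libraries. *IFIT2* had 10.2 and 9.91 CPM with shEVI1-2531 and 6.64 and 6.79 with shEVI1-2532, against 6.70 and 10.8 with NTC, and its groups overlapped.

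*OAS2* had the lowest log2 fold change of any member with both shRNAs. *OAS1* had 31.7 and 71.2 CPM with NTC, 14 and 8.25 with shEVI1-2531 and 8.10 and 4.60 with shEVI1-2532. *OAS2* had 13.3 and 8.45 CPM with shEVI1-2531 and 5.94 and 3.14 with shEVI1-2532, against 40.7 and 109.6 with NTC. *OAS3* had 118 and 332 CPM with NTC, 54.7 and 75.7 with shEVI1-2531 and 26.4 and 29.5 with shEVI1-2532. All 3 were lower in every shEVI1 library than in either NTC library, and each was higher on day 6 than on day 3 with NTC. *OASL* had 3.57 and 1.77 CPM with shEVI1-2531 and 0.728 and 0.352 with shEVI1-2532, against 3.65 and 7.88 with NTC. *ISG15* had 43.3 and 108 CPM with NTC, 55.7 and 28.2 with shEVI1-2531 and 25.6 and 19 with shEVI1-2532. *UBE2L6* had 67.9 and 41.8 CPM with shEVI1-2531 and 57 and 46.4 with shEVI1-2532, against 48 and 70.0 with NTC. On day 3 shEVI1-2531 was above NTC for *ISG15* and *UBE2L6*, and shEVI1-2532 for *UBE2L6*. *HERC5* had 10.3 and 13 CPM with NTC, 9.42 and 8.25 with shEVI1-2531 and 23.6 and 25.1 with shEVI1-2532, so that its level was above NTC with shEVI1-2532 only.

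Among the transcription factors, *STAT2* had 21.8 and 29.5 CPM with NTC, 19.6 and 21.9 with shEVI1-2531 and 17 and 20.5 with shEVI1-2532. *IRF7* had 15.1 and 14.7 CPM with shEVI1-2531 and 22.7 and 24 with shEVI1-2532, against 15.8 and 39.3 with NTC. *IRF1* had 9.78 and 13.6 CPM with NTC, 21.2 and 21.1 with shEVI1-2531 and 17.1 and 21.3 with shEVI1-2532. *IRF1* was above both NTC libraries in all 4 shEVI1 libraries, whereas the groups of *STAT2* and *IRF7* overlapped. *MX1* had 22.2 and 16.3 CPM with shEVI1-2531 and 15.1 and 9.37 with shEVI1-2532, against 24.7 and 86.8 with NTC. *MX2* had 21.5 and 29.9 CPM with NTC, 18.1 and 19.3 with shEVI1-2531 and 13.1 and 15.7 with shEVI1-2532. Both MX genes were below NTC in all 4 shEVI1 libraries. The GBP genes went the other way with shEVI1-2532. *GBP2* had 0.506 and 1.81 CPM with shEVI1-2531 and 3.66 and 4.02 with shEVI1-2532, against 1.16 and 0.972 with NTC. *GBP4* had 0.166 and 0.370 CPM with NTC, 0.214 and 0.249 with shEVI1-2531 and 0.409 and 0.767 with shEVI1-2532. *GBP5* had 0.112 and 0.356 CPM with shEVI1-2531 and 1.27 and 1.44 with shEVI1-2532, against 0.0950 and 0.0771 with NTC. Both shEVI1-2532 libraries exceeded both NTC libraries for these 3 genes, and the shEVI1-2531 library of day 3 was the lowest of the 6 for *GBP2*.

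*IFITM1* had 94 and 140.1 CPM with NTC, 69.9 and 47.5 with shEVI1-2531 and 13.1 and 8.64 with shEVI1-2532. *IFITM2* had 303 and 287 CPM with shEVI1-2531 and 186 and 197 with shEVI1-2532, against 358 and 567 with NTC. *LY6E* had 212 and 364 CPM with NTC, 266 and 261 with shEVI1-2531 and 208 and 164 with shEVI1-2532. *IFITM1* was lower in all 4 shEVI1 libraries and lowest with shEVI1-2532. *PLSCR1* had 87.5 and 63.3 CPM with shEVI1-2531 and 138 and 109 with shEVI1-2532, against 73.4 and 50.5 with NTC. It was above NTC of the same day in each shEVI1 library and was lower on day 6 than on day 3 in each arm. *TRIM25* had 128 and 171 CPM with NTC, 143 and 226 with shEVI1-2531 and 205 and 222 with shEVI1-2532. *TRIM22* had 82.4 and 69.6 CPM with shEVI1-2531 and 96.8 and 77.3 with shEVI1-2532, against 79.6 and 58.4 with NTC. *RNF213* had 36.7 and 72 CPM with NTC, 34.5 and 39.3 with shEVI1-2531 and 38.9 and 47.9 with shEVI1-2532. Of these 3 ligase genes *TRIM25* and *TRIM22* were above NTC of the same day in every shEVI1 library. *RNF213* was close to NTC on day 3 and below NTC on day 6 with both shRNAs. *SP100* had 20.0 and 21.9 CPM with shEVI1-2531 and 39.2 and 33.9 with shEVI1-2532, against 50.2 and 42 with NTC. *IFI16* had 82.3 and 118 CPM with NTC, 32.9 and 38.7 with shEVI1-2531 and 45.9 and 40.1 with shEVI1-2532. Both were below NTC in each shEVI1 library.

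*IFI6* had 80.9 and 188 CPM with NTC, 292 and 68 with shEVI1-2531 and 113 and 54.6 with shEVI1-2532. Here shEVI1-2531 on day 3 was the highest library of all 6. *IFI27* had 3.94 and 0.721 CPM with shEVI1-2531 and 1.39 and 0.309 with shEVI1-2532, against 3.11 and 6.61 with NTC. *IFI44L* had 1.62 and 2.47 CPM with NTC, 1.53 and 0.356 with shEVI1-2531 and 0.512 and 0.117 with shEVI1-2532. *XAF1* had 0.854 and 0.622 CPM with shEVI1-2531 and 0.535 and 0.341 with shEVI1-2532, against 2.23 and 4.17 with NTC. *IFI44L* and *XAF1* were below both NTC libraries in every shEVI1 library, and *IFI27* was in 3 of 4. *IFI35* had 30.1 and 44.6 CPM with NTC, 42.7 and 31.5 with shEVI1-2531 and 48.3 and 40.4 with shEVI1-2532, which overlapped between groups. *IFIH1*, *EIF2AK2*, *IFI16*, *OAS1*, *OAS2*, *OAS3*, *XAF1*, *IFI44L*, *IFIT1* and *MX1* were below NTC already on day 3 with both shRNAs. With shEVI1-2531 each of them was further below NTC of the same day on day 6 than on day 3. The NTC level of each was itself higher on day 6. *SP100* and *SAMD9* were also below NTC on day 3 with both shRNAs, but with shEVI1-2531 they were closer to NTC on day 6. *SP100* had 20.0 CPM against 50.2 on day 3 and 21.9 against 42 on day 6. *SAMD9* had 8.27 against 20.6 and 10.3 against 20.8.

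**Figure D3:**
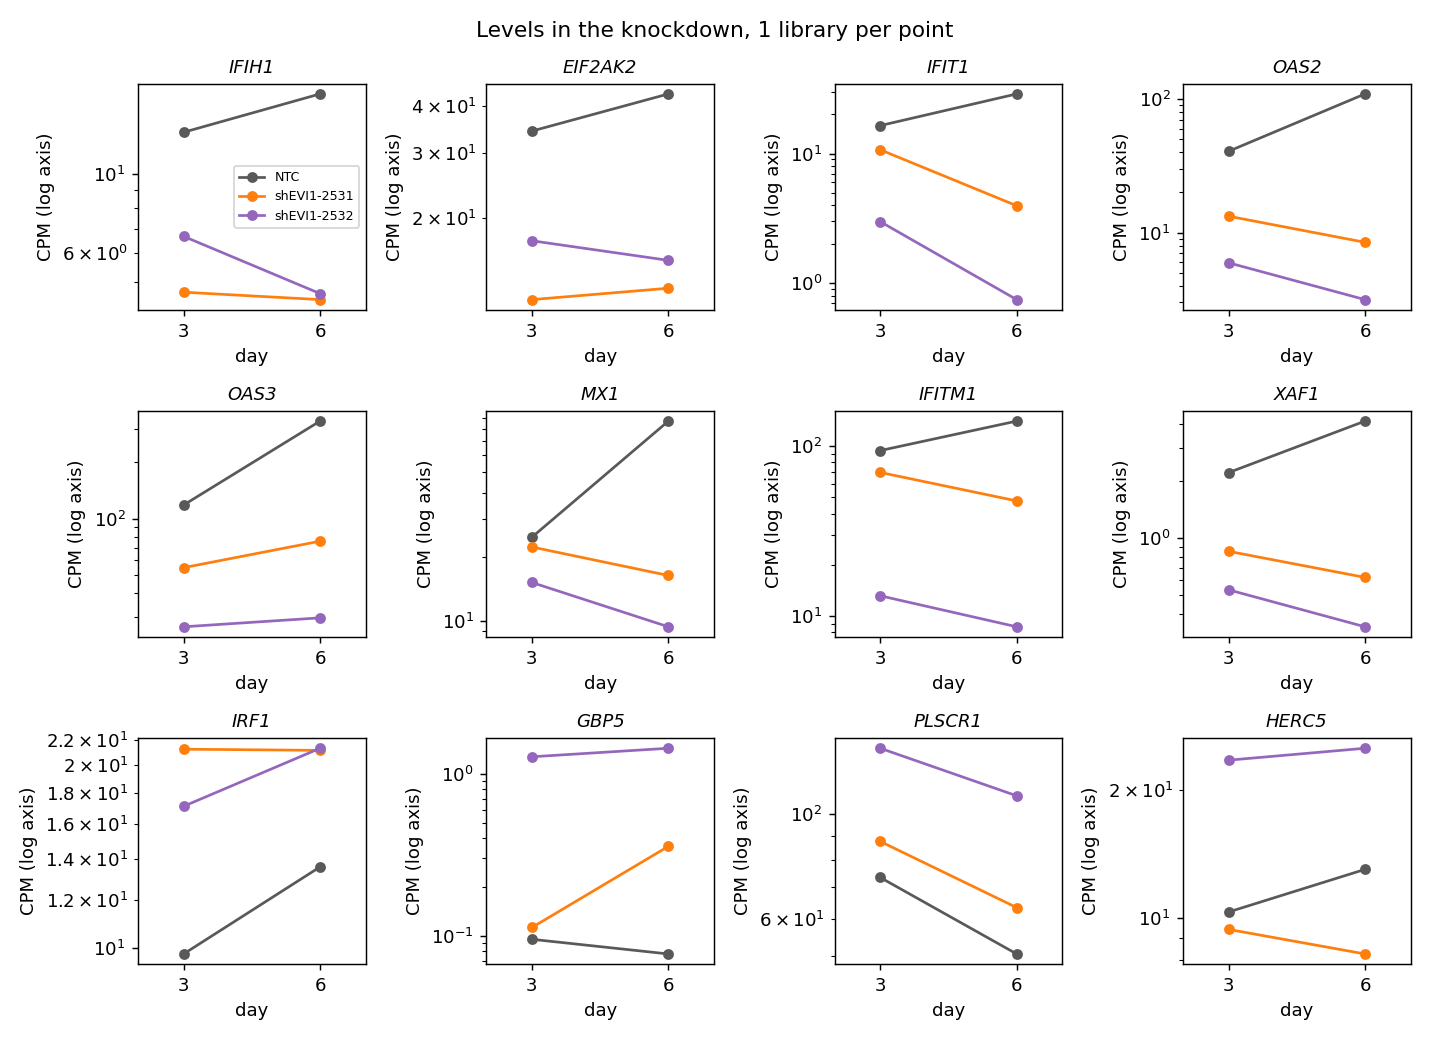
Levels of 12 members in the knockdown (CPM, log axis) on day 3 and day 6, with 1 library per point and lines joining the libraries of an arm. *IFIH1*, *EIF2AK2*, *IFIT1*, *OAS2*, *OAS3* and *XAF1* lie below both NTC points in every shEVI1 library, *IRF1* lies above them, and *GBP5*, *PLSCR1* and *HERC5* lie above them with shEVI1-2532.

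With both shRNAs as 1 group and the day as block, 4 of 54 members fell and 0 rose, against 0.806% and 0.849% of all genes (edgeR's quasi-likelihood test, Benjamini-Hochberg adjustment). *IFIH1* fell with a log2 fold change of -1.55 ± 0.25 (SE, adjusted p = 0.0448), *EIF2AK2* with -1.42 ± 0.22 (SE, adjusted p = 0.0431), *IFI16* with -1.33 ± 0.20 (SE, adjusted p = 0.0431) and *SAMD9*, a restriction factor gene, with -1.10. The median log2 fold change was -0.78 over the members and 0.02 over all genes. An unadjusted p under 0.05 was found for 28 members, against 4406 of all 18606 genes. Without the NTC library of day 6 the members' median was -0.31, and without that of day 3 it was -1.25, and in both fits 0 members and 0 of all 18606 genes passed. DESeq2 called 19 members lower and 2 higher, beside 1039 and 1424 of all genes. Scaling to the library total alone moved the median of all genes to -0.21 and called 6 members lower and 0 higher, beside 240 and 111 of all genes.

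With shEVI1-2531, 22 of 54 members fell and 1, *IRF1*, rose, against 7.9% and 9.49% of all genes. *OAS2* fell with -2.80 ± 0.43 (SE, adjusted p = 9.98e-04), *OAS1* with -2.25 ± 0.38 (SE, adjusted p = 0.00185) and *XAF1* with -2.12 ± 0.37 (SE, adjusted p = 0.00212), while *IRF1* rose with 0.88 ± 0.18 (SE, adjusted p = 0.00571). By role, 4 of 6 RNA sensor genes, 3 of 4 IFIT genes, 3 of 5 genes of the OAS group, 3 of 3 nuclear body and DNA-binding genes and 0 of 5 genes of ISG15 conjugation fell. Without the NTC library of day 6 the calls were 9 lower, which were *IFIH1*, *EIF2AK2*, *OAS1*, *OAS2*, *OAS3*, *SP100*, *IFI16*, *XAF1* and *SAMD9*, and 2 higher, *IRF1* and *IFI6*, beside 1023 and 1124 of all genes. The members' median was -0.15 without this library and -0.79 with it.

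With shEVI1-2532, 35 of 54 members fell and 7 rose, against 19.9% and 21.2% of all genes, with a median log2 fold change of -1.15. *OAS2* fell with -4.06 ± 0.46 (SE, adjusted p = 2.78e-05), *IFIT1* with -3.93 ± 0.52 (SE, adjusted p = 9.35e-05) and *OASL* with -3.49 ± 0.48 (SE, adjusted p = 1.19e-04). The 7 that rose were *GBP5* with 3.96 ± 0.47 (SE, adjusted p = 4.25e-05), *GBP2* with 1.82 ± 0.40 (SE, adjusted p = 0.00315), *GBP4* with 1.15 ± 0.40 (SE, adjusted p = 0.0363), *HERC5* with 1.06, *PLSCR1* with 1.01, *IRF1* with 0.72 and *TRIM25* with 0.53. All 6 RNA sensor genes fell, as did 3 of 4 IFIT genes, 4 of 5 of the OAS group, 6 of 8 membrane and entry genes and 7 of 10 genes of varied role, whereas 3 of the 5 MX and GBP genes tested rose and both MX genes fell. Without the NTC library of day 6, 25 fell and 6 rose, with a median of -0.63, beside 2906 and 2915 of all genes. *GBP4* did not pass with DESeq2, with scaling to the library total, or without any 1 of the NTC or shEVI1-2532 libraries (adjusted p of 0.0732 to 0.246 over these settings). Scaling to the library total alone moved the median of all genes to -0.30 and called 39 members lower and 4 higher, beside 5956 and 2360 of all genes.

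**Figure D4:**
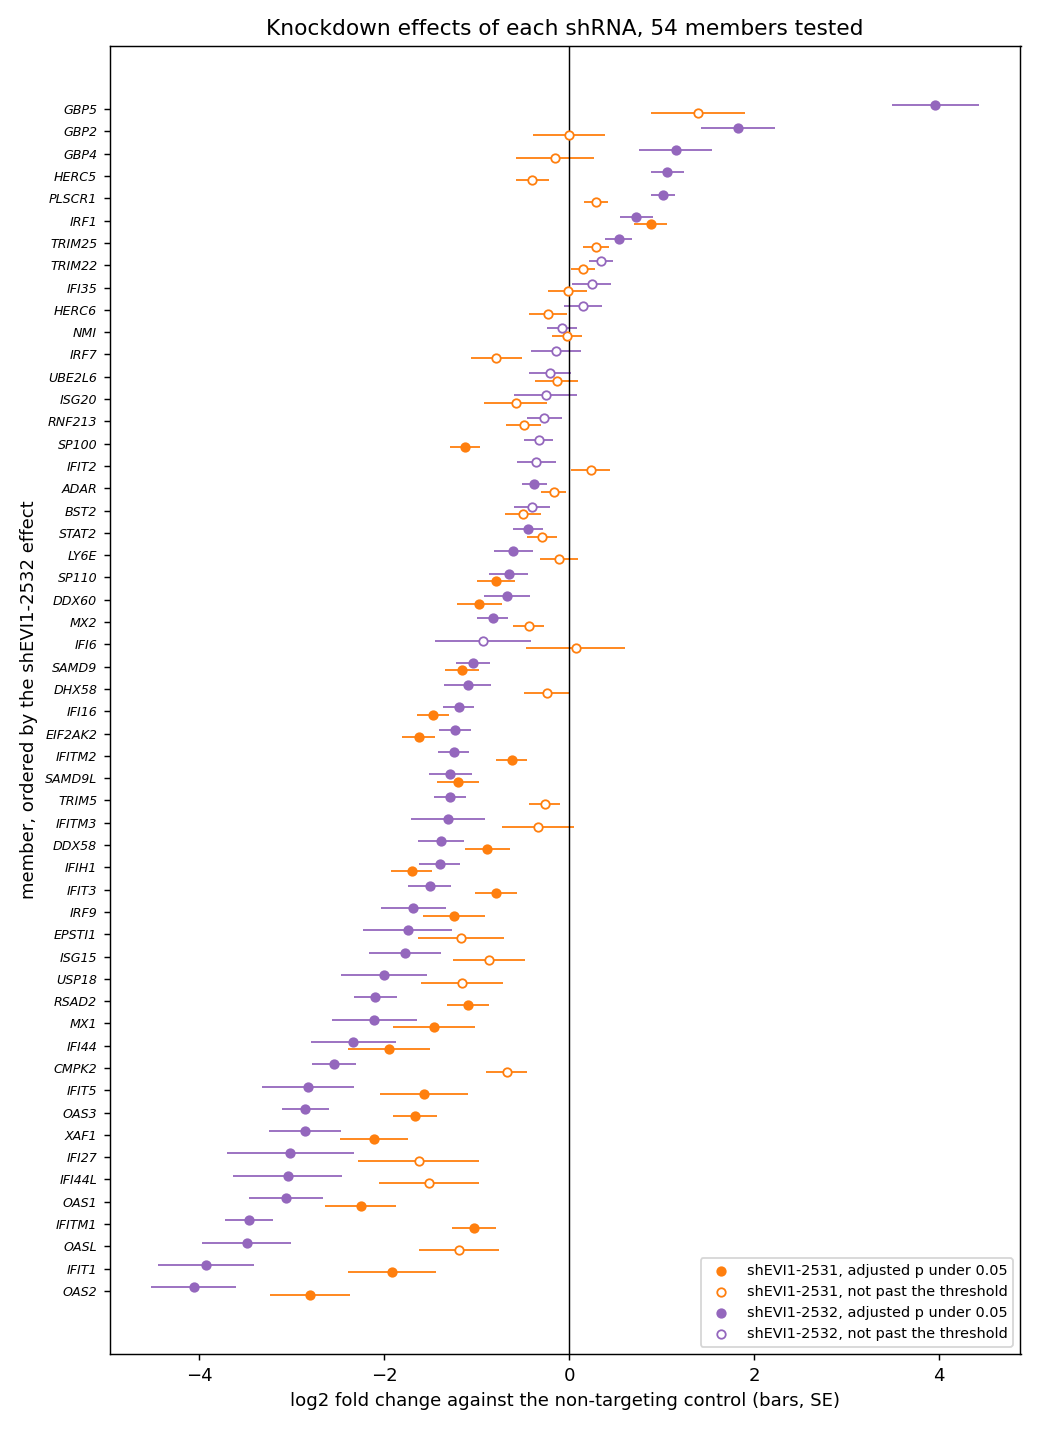
Log2 fold changes of the 54 members tested against NTC for shEVI1-2531 (orange) and shEVI1-2532 (purple), with SE as bars and filled points for an adjusted p under 0.05. Members are ordered by the shEVI1-2532 effect, from *OAS2* at the bottom to *GBP5* at the top, and 44 of 54 lie below 0 for shEVI1-2532.

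The shRNAs differed in 17 members when tested against each other, 6 being higher and 11 lower with shEVI1-2532, against 12.2% and 12% of all genes. The share of members higher was near that of all genes and so is not particular to the members. *GBP5* was higher with 2.57 ± 0.43 (SE, adjusted p = 0.00124), *GBP2* with 1.83 ± 0.41 (SE, adjusted p = 0.00664), *HERC5* with 1.46 ± 0.19 (SE, adjusted p = 2.18e-04), *GBP4* with 1.30, *SP100* with 0.80 and *PLSCR1* with 0.72. *IFITM1* was lower with -2.43 ± 0.25 (SE, adjusted p = 5.78e-05), *OASL* with -2.30 ± 0.46 (SE, adjusted p = 0.00368) and *IFIT1* with -2.01 ± 0.48 (SE, adjusted p = 0.00965). *CMPK2* (-1.86), *OAS2* (-1.26) and *OAS3* (-1.18) were also lower, with *TRIM5*, *RSAD2*, *DHX58*, *IFIT3* and *IFITM2*. Without the shEVI1-2531 library of day 3, 6 members were higher and 6 lower, beside 1437 and 1552 of all genes.

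Day 6 against day 3 over the 3 arms gave 4 members higher and 2 lower, against 11.9% and 11.9% of all genes, and a median of -0.04. *OAS3* was higher with 0.71 ± 0.20 (SE, adjusted p = 0.0225), *ADAR* with 0.50 ± 0.11 (SE, adjusted p = 0.00749) and *RNF213* with 0.49 ± 0.15 (SE, adjusted p = 0.0380), followed by *TRIM25* with 0.40. *PLSCR1* was lower with -0.45 ± 0.11 (SE, adjusted p = 0.0107) and *TRIM22* with -0.34 ± 0.11 (SE, adjusted p = 0.0382). The arms went different ways, since 28 of the 56 members were higher at day 6 with NTC and lower with both shRNAs, and without an NTC library 0 were called higher and 15 (without day 3) or 16 (without day 6) lower, beside 1158 or 1253 of all genes lower. The count of 28 members was not made over all genes. Scaling to the library total alone moved the median of all genes to 0.18 and called 6 members higher and 0 lower, beside 3533 and 1250 of all genes.

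The pathway above these genes was read from further lists. Of the 21 interferon genes listed, 1, *IFNB1*, was tested in the time course and 0 in the knockdown, and 16 to 20 of them had 0 counts in each library. *IFNB1*, for interferon beta, had 1 count in untreated cells, 2, 4 and 12 with DMSO, 4, 14 and 14 with olaparib and 5, 16 and 5 with talazoparib at 12, 24 and 48 h. Its log2 fold change for 48 h against 12 h over the 3 arms was 1.84 ± 0.62 (SE, adjusted p = 0.0420). Its mean inhibitor effect was 0.91 ± 0.52, which did not pass (adjusted p = 0.235). In the knockdown it had 6 and 5 counts with NTC, 3 and 4 with shEVI1-2531 and 0 and 0 with shEVI1-2532.

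Of the 10 receptor, kinase and STAT genes tested, 0 passed for the mean PARPi effect, and 7 rose and 0 fell with shEVI1-2532, against 21.2% and 19.9% of all genes, with a median log2 fold change of 0.85. The receptor genes *IFNAR1*, *IFNAR2*, *IFNGR1*, *IFNGR2* and *IL10RB* rose by 0.91, 1.66, 1.39, 0.78 and 1.89 with shEVI1-2532, and *JAK1* and *STAT3* by 0.74 and 1.02. These receptor genes were higher in the libraries in which 35 of 54 members were lower.

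Of the 13 nucleic acid sensing genes tested, 1 rose for the mean PARPi effect, *ZBP1*, a sensor of Z-form nucleic acid, with 2.06 ± 0.35 (SE, adjusted p = 0.0333), against 2.93% of all genes. With shEVI1-2532 3 rose and 2 fell, shares near the 21.2% and 19.9% of all genes. *CGAS*, the sensor of cytosolic DNA, fell by 1.08 with shEVI1-2531 and dropped by 1.06 with shEVI1-2532 on the log2 scale, and its adaptor STING, listed as *TMEM173*, rose by 1.51 with shEVI1-2532. *TLR8* rose with both shRNAs, by 3.10 and 4.91. Of the 6 negative regulators 0 passed for the mean PARPi effect and 3 rose with shEVI1-2532, among them *SOCS3* with 1.44. Of 18 other interferon-induced genes tested, 2 rose for the mean PARPi effect, *HELZ2* with 1.09 and the antigen transporter gene *TAP1* with 1.02. For 48 h against 12 h over the 3 arms, 14 of the 18 rose, with a median of 0.85, against 22.2% of all genes. With shEVI1-2532 4 rose and 4 fell, again near the shares of all genes: *PARP9*, *HELZ2*, *TNFSF10* and *PARP14* were lower and *B2M*, *LGALS3BP*, *TDRD7* and *SHISA5* higher.

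Monocyte markers moved in both experiments. The 12 markers summed to 1107, 1447 and 1423 CPM with DMSO at 12, 24 and 48 h, 1359.7, 2769 and 10014 with olaparib and 1348, 4261 and 16811 with talazoparib. They summed to 1541 and 1114 CPM with NTC, 3154 and 2545 with shEVI1-2531 and 10095 and 10032 with shEVI1-2532. Most of each sum came from *S100A8*, *S100A9* and *LYZ*, which had 3804, 8131 and 4115 CPM with talazoparib at 48 h. *CSF1R* went the other way at 48 h, with 234 CPM with DMSO, 179 with olaparib and 186 with talazoparib. Of these 12 genes, 10 had a slope of the PARPi effect above 0 past the threshold, 8 rose with shEVI1-2531 and 10 with shEVI1-2532, against 10.4%, 9.49% and 21.2% of all genes, and 0 fell in these tests. *CD14*, the defining monocyte marker, had 8.15, 5.37 and 2.77 CPM with DMSO, 13.3, 24.7 and 64.7 with olaparib and 10.6, 26 and 96.7 with talazoparib, against 6.39 in untreated cells, and 0.435 and 0.579 CPM with NTC, 10.6 and 13.8 with shEVI1-2531 and 11.9 and 25.5 with shEVI1-2532. The 56 members summed to 3270.5, 3258 and 5357 CPM with DMSO, 3416, 4286 and 9325 with olaparib and 3621, 5644 and 9039 with talazoparib. *IFI6* alone held 355 CPM of this sum with DMSO at 48 h, 1468 with olaparib and 1924 with talazoparib. With DMSO the members' sum was higher at 48 h than at 24 h and the marker sum was not, and at 48 h talazoparib had a higher marker sum than olaparib and a lower members' sum. In the knockdown the members summed to 2333 and 3725 CPM with NTC, 2311 and 2006 with shEVI1-2531 and 1887 and 1735 with shEVI1-2532. Every shEVI1 library had more marker CPM and fewer member CPM than NTC of the same day, by the least for the members with shEVI1-2531 on day 3. In that library *IFI6* alone had 292 CPM, against 80.9 with NTC. The part of these markers in the members' levels was not tested. *MECOM* itself had 49, 49.3 and 61.7 CPM with DMSO, 44.4, 38.4 and 23.4 with olaparib and 44.8, 30.8 and 10.0 with talazoparib, against 28.3 in untreated cells.

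**Figure D5:**
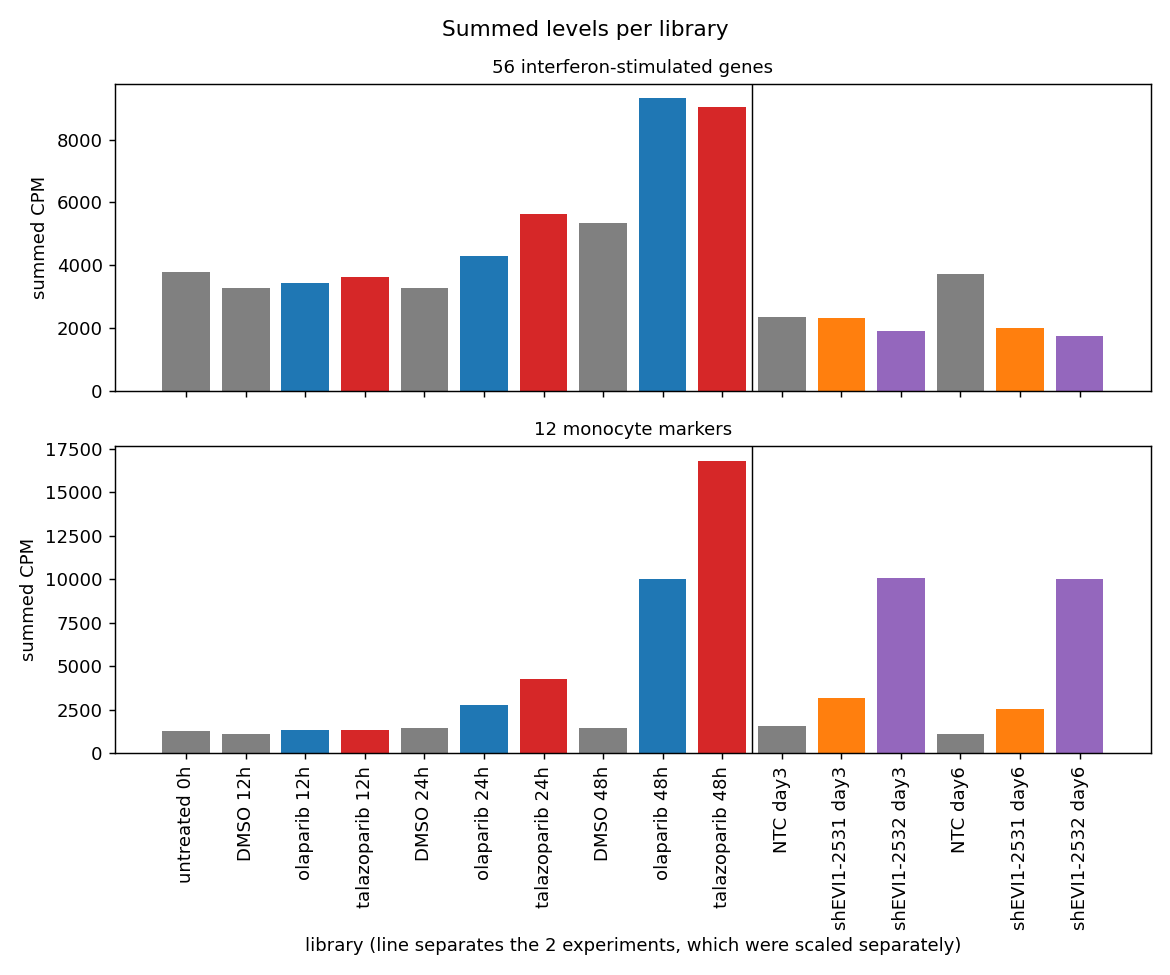
Summed levels (CPM, bars from 0) of the 56 interferon-stimulated genes and of 12 monocyte markers in each of the 16 libraries, control and untreated libraries in grey and the line separating the time course from the knockdown. The members' sum is highest with the inhibitors at 48 h. The marker sum is highest with talazoparib at 48 h and about as high with shEVI1-2532 as with olaparib at 48 h, while the members' sum with shEVI1-2532 is low.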

How the data were processed

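The 16 RNA-Seq libraries of MUTZ-3 cells were grouped by the labels' treatment and time. The authors deposited raw counts per gene, and featureCounts, STAR and Picard are named in the submitters' processing notes, with builds GRCh38 and hg38 and no versions. The authors also deposited TPM, which were not used. Whether counting used strand is not given in the sources used here. A gene entered the time-course fits when 3 or more of the 9 vehicle and inhibitor libraries had 10 or more counts for it, and the knockdown fits when 2 or more of 6 had. Fits were made with edgeR 4.0.16 (R 4.3.3; TMM, glmQLFit, glmQLFTest), with hours or day as a factor. The fits left 4 (time course), 2 (slope and the fits of each shRNA) and 3 (knockdown mean) residual degrees of freedom, and the prior degrees of freedom were 4.21 (time course), infinite (slope), 10.1 (each shRNA) and 3.69 (knockdown mean). The untreated library entered the scaling and ratios only. SEs were derived from the test statistic. p-values were adjusted over all genes tested, with a threshold of 0.05. Ratios of single libraries, with 0.5 added to both counts, have no test, and their 95% intervals cover counting error only. DESeq2 1.42.0, scaling to library totals, no filter and left-out libraries were the alternatives. The fits were also run on simulated counts with the same spread for all genes. Beyond depth, those libraries differed only by the change under test. This is simpler than the real counts, so it does not test the p-values given here. The members, the other gene lists and the rule for the genes given library by library were chosen with earlier results of these data known. By this rule, these are the 2 members of each role group with the highest mean log2 CPM and, for each comparison, up to 3 members in each direction with the largest change among those past the threshold, or the 3 largest where 0 passed. Plots came from matplotlib 3.10.9 (Python 3.11.15).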

Additional observations from a re-analysis of the deposited data

Results flagged for a closer look

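Members whose inhibitor effect differed between time points, by the test of the slope on the log2 of hours (edgeR, adjusted p under 0.05), were *IFI27* (1.44), *GBP5* (1.23), *GBP2* (1.21), *IFI6* (1.03), *IFI44L* (0.87) and *ISG20* (0.86), as the slope in log2 fold change for each doubling of hours. The same test passed for *ISG15* (0.79), *EPSTI1* (0.74), *BST2* (0.68), *PLSCR1* (0.65), *OASL* (0.63) and *IFIT2* (0.52). It also passed for *RSAD2* (0.50), *IFIT1* (0.48), *RNF213* (0.47), *IFIT3* (0.46) and *IFI35* (0.36).

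Members whose effect differed between the shRNAs, by the test of shEVI1-2532 against shEVI1-2531 with the same NTC libraries, were higher with shEVI1-2532 for *GBP5* (2.57), *GBP2* (1.83), *HERC5* (1.46), *GBP4* (1.30), *SP100* (0.80) and *PLSCR1* (0.72) on the log2 scale. They were lower for *IFITM1* (-2.43), *OASL* (-2.30), *IFIT1* (-2.01), *CMPK2* (-1.86), *OAS2* (-1.26) and *OAS3* (-1.18), and for *TRIM5* (-1.02), *RSAD2* (-1.0), *DHX58* (-0.86), *IFIT3* (-0.72) and *IFITM2* (-0.63). Of 54 members tested, the 6 higher are a share near the 12.2% of all genes, and the 11 lower stand beside 12% of all genes. Both shRNAs lowered *MECOM*, with log2 fold changes of -1.34 and -3.04, and the part of this difference in the members' levels was not tested.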

How the results depend on the processing

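No paired analysis was possible because the labels carry no replicate numbers and each condition has 1 library, so hours or day served as blocks. Counts of members past the threshold moved by over 1.5 times as follows, and the cause was not tested. With DESeq2 the members called were 31 (PARPi mean), 5 (olaparib) and 29 (talazoparib) higher, 9 for the slope, and 2 higher and 19 lower for the knockdown mean. Over all genes these counts were 1835, 584, 1965 and 1373 of 17218, and 1424 higher and 1039 lower of 18606. Without a filter on low counts the members called were 35, 16 and 33 higher for the PARPi mean, olaparib and talazoparib, 3 higher and 26 lower for the knockdown mean, 2 higher for shEVI1-2531, 22 lower for the difference between shRNAs and 8 lower for day. In the same order all genes gave 2048, 815 and 2186 higher of 33282. Of 32252 genes, 1580 were higher and 1277 lower, 2083 higher, 2483 lower and 2409 lower. Scaling to library totals gave 3 higher for the PARPi mean and 3 for talazoparib, 1 lower for the slope and 1 for culture time, 4 higher for shEVI1-2532 and 0 lower for day, beside 13 higher for the slope, 43 for culture time and 6 for day. In the same order all genes gave 387 and 162 higher, 2424 and 4460 lower, 2360 higher and 1250 lower, beside 1091, 2742 and 3533 higher. NTC and shEVI1-2532 alone gave 7 members higher and 37 lower for the knockdown mean, beside 4211 and 3974 of all 18606 genes. Leaving out 1 time point gave 0 to 34 higher for the PARPi mean, 0 to 18 for olaparib and 0 to 31 for talazoparib, and leaving out 1 arm gave 0 to 46 for culture time. Of all 17218 genes these fits gave 0 to 2040, 0 to 829, 0 to 2167 and 0 to 5033 higher. Leaving out 1 library gave 0 to 10 lower for the knockdown mean, 0 to 2 higher and 9 to 32 lower for shEVI1-2531, 4 to 7 higher and 25 to 40 lower for shEVI1-2532, 5 to 7 higher and 6 to 23 lower for the difference, and 0 to 7 higher and 1 to 16 lower for day. A fit that leaves out a library assumes that the lone library of that arm and those of the other arms vary alike. Without the 24 h libraries (each inhibitor effect), the olaparib libraries (culture time) or either NTC library (knockdown mean), 0 of all genes passed, so these counts of 0 say nothing particular to the members. No value changed sign past the threshold. Of the alternatives for single named members, 249 stayed on their side of the threshold, 46 no longer passed and 5 newly passed. Depth limited *GBP1*, *RTP4* and *IFNB1*, which had under 10 counts in several libraries.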
